A study of Mus musculus with 6 samples.

Results

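In all, 10 genes of the NF-kB and inflammatory programme were followed across 3 clock-deficient fibroblast lines. They were Nos2, Steap4, Lcn2, Saa3, Il6, Ptgs2, C3, Nfkbia, Tnfaip3 and Il1rl2. Their rows were taken by Entrez Gene ID, and all 10 were found among the 27179 genes of the count files. The members had been chosen with their levels in these libraries known, so their levels and differences are given as a description and carry no test. Further genes of the pathway, in 9 lists with 141 genes, were tested within a fit of all 11934 genes that reached a mean of 100 normalized counts. These lists were also chosen with earlier results of these data known, so their shares against all genes are a description.

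RNA-seq was performed on immortalized mouse embryonic fibroblast (MEF) lines of the C57BL/6 strain, growing in serum-containing medium without any added cytokine. Cry/Per_KO cells carry cry1-/-, cry2-/-, per1-/- and per2-/-. Cry/Per/Nr1d_KO cells carry the same mutations and also nr1d1-/- and nr1d2-/-. Per/Nr1d_KO cells carry per1-/-, per2-/-, nr1d1-/- and nr1d2-/- and keep both Cry genes. All 3 lines lack PER1 and PER2, and no wild-type line was sequenced. CRY and PER repress the activator CLOCK-BMAL1, and NR1D1 and NR1D2 (REV-ERB) are nuclear receptors that repress Bmal1. The Cry/Per/Nr1d_KO line was isolated as a colony after the Nr1d genes of Cry/Per_KO cells were mutated by CRISPR, whereas Per/Nr1d_KO is a separately established line. Each genotype was therefore represented by a single line, and genotype cannot be told apart from other differences between lines. The 2 libraries of a line came from independent RNA preparations, so errors and p-values measure the spread between preparations of that line.

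The labels of 4 libraries are in doubt. The recorded genotype and the deposited file name contradict each other for the Cry/Per_KO and Cry/Per/Nr1d_KO pairs, each naming the other line. The genotype was followed here, and each of these pairs is named by that label. No difference between these pairs is assigned to a genotype. With the labels exchanged, every difference between these pairs changes sign, and each comparison of Per/Nr1d_KO cells with one of these pairs takes the value given here for the other. The levels of Per/Nr1d_KO cells do not change. The mutated clock genes were not silent in the lines that lack their proteins. All 6 were transcribed in all 6 libraries, at 1004 to 9337 normalized counts per library. Each of them was higher in both labelled Cry/Per_KO libraries than in both labelled Cry/Per/Nr1d_KO libraries (for Nr1d1, 9337 and 9249 against 3158 and 3146). For Cry1, Per1, Per2, Nr1d1 and Nr1d2 the paper reports lower RNA in Cry/Per_KO than in Cry/Per/Nr1d_KO cells, and for Cry2 similar RNA. The lower RNA is the direction that these libraries show under their file names, not under their genotype labels. Library totals lay between 53764390 and 85927236 counts, and normalized counts are counts scaled to a common library size. The 10 fibroblast markers summed to between 867241 and 1731158 normalized counts per library. Thy1 among them had at most 6.21 normalized counts in any library.

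NF-kB is a family of dimeric transcription factors that inhibitors such as IkB-alpha hold in the cytoplasm. Signals from the IL-1, Toll-like and TNF receptors lead to degradation of the inhibitor, and the released factor activates genes for cytokines, acute-phase proteins and enzymes of inflammation. Several targets, including Nfkbia and Tnfaip3 themselves, act back on the pathway, and C/EBP factors and STAT3 act together with NF-kB on many acute-phase genes.

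Promoter sequence was examined first, over the 250 bases before and 50 bases after each transcription start in RefSeq (GRCm38.p6). Of the members, 9 had an entry, and no window was available for Nos2. On either strand, 4 of these 9 members held a match to the 10-base NF-kB consensus in at least one window, namely Steap4, Il6, Tnfaip3 and Nfkbia. Among all 32851 windows of this length, 4.51% held a match. The sequences before the start of these 4 genes are printed 5′ to 3′ on the strand of the gene, with the matches in capitals, because they show where the motif lies.
Steap4: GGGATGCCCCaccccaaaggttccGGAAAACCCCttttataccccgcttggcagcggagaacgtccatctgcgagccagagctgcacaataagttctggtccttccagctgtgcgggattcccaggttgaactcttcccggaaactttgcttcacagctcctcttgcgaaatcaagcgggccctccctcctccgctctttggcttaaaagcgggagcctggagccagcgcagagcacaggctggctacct
Il6: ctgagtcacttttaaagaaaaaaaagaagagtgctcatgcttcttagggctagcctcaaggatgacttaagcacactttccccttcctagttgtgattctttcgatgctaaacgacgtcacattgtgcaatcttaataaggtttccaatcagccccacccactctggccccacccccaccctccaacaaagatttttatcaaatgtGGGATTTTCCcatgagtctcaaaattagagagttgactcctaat
Tnfaip3: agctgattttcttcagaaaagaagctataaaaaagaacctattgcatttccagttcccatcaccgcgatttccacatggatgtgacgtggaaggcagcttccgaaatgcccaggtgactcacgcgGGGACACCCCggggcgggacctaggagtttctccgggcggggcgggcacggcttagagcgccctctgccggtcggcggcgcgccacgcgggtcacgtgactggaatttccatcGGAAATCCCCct
Nfkbia: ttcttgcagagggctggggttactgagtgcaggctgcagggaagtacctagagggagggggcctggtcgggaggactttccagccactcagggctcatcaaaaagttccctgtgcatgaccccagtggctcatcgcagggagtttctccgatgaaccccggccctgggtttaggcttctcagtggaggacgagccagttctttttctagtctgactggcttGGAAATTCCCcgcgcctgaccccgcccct
The stretches are chr5:7960222-7960471 on the plus strand for Steap4, chr5:30012864-30013113 on the plus strand for Il6, chr10:19015411-19015660 on the minus strand for Tnfaip3 and chr12:55492648-55492897 on the minus strand for Nfkbia. Counting from the start site, the Steap4 matches lay at -250 to -241 and at -226 to -217, both on the opposite strand. The Il6 match lay at -44 to -35 on the strand of the gene. Tnfaip3 held one at -125 to -116 and another, on the opposite strand, at -12 to -3, and the match of Nfkbia lay at -29 to -20 on the opposite strand. Tnfaip3 has a second window, from a start further downstream, which held none.

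The windows of Lcn2, Saa3, C3, Ptgs2 and Il1rl2 held no match to these letters. The E-box CACGTG, the sequence that CLOCK-BMAL1 recognises, was found in Tnfaip3 at -33 to -28 and in Ptgs2 at 16 to 21 after the start, against 7.15% of all windows. The half-site AGGTCA, the core of the sequence bound by NR1D1 and NR1D2, was found in C3 alone, at -243 to -238, against 16.3% of all windows. None of these matches overlapped a match to another motif. A match is a description of the sequence and no binding was measured.

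**Figure D1:**
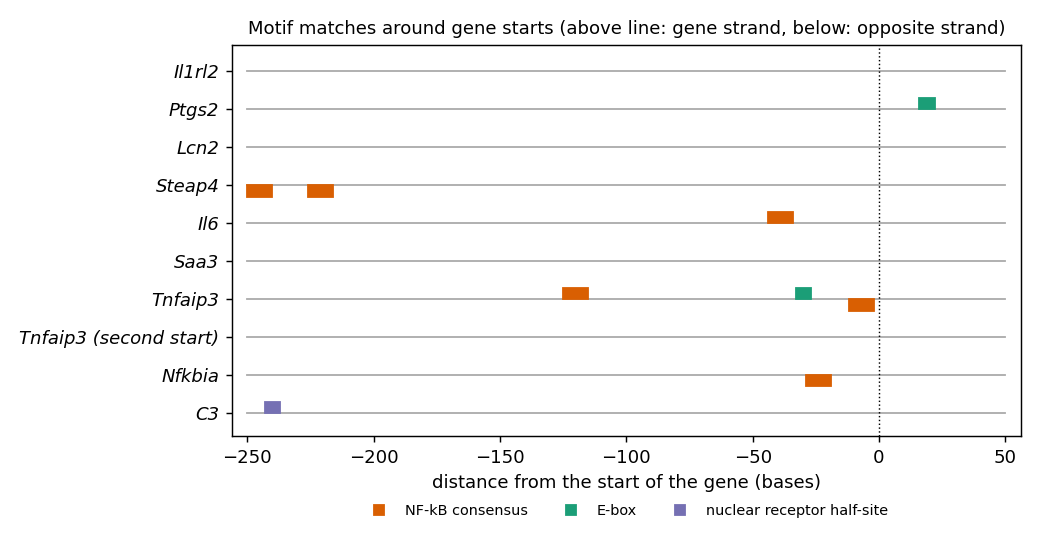
Matches to the NF-kB consensus, the E-box and the nuclear receptor half-site in the promoter windows of the members with a RefSeq entry. The horizontal axis is the distance from the transcription start in bases, each row is a window, and matches to the NF-kB consensus appear in Steap4, Il6, Tnfaip3 and Nfkbia.

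Across the lines, the members formed a steep gradient. Of the 10 members, 8 (all except Ptgs2 and Il1rl2) were lowest in the labelled Cry/Per/Nr1d_KO pair, intermediate in the labelled Cry/Per_KO pair and highest in both Per/Nr1d_KO libraries, without overlap. This order held for 9.96% of all genes tested. All 10 members were higher in both Per/Nr1d_KO libraries than in the other 4, as were 32.7% of all genes, and 8 were lower in both libraries labelled Cry/Per/Nr1d_KO than in the other 4, as were 21.0%. Because the members were chosen on these levels, nothing is read from these shares. All 10 passed the filter on low values, but only Ptgs2, C3, Nfkbia and Tnfaip3 reached a mean of 100 in each line. The other 6 passed through the lines in which they are high.

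**Figure D2:**
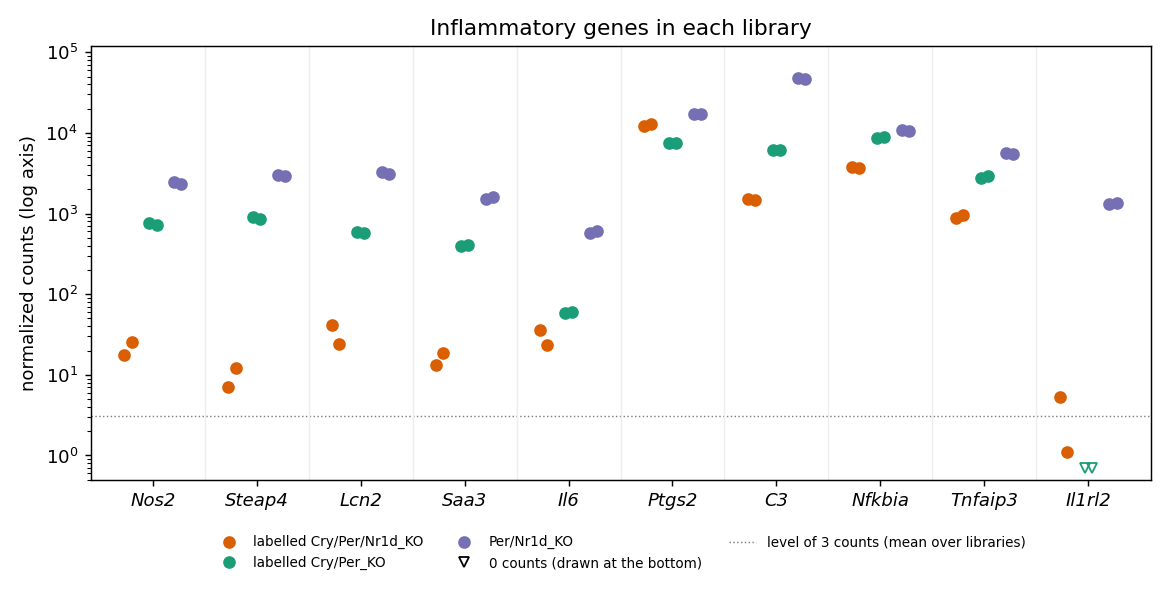
Normalized counts of the 10 members in each of the 6 libraries, on a logarithmic axis, coloured by line. The Per/Nr1d_KO libraries are the highest for each member, and the pairs labelled Cry/Per/Nr1d_KO and Cry/Per_KO change order for Ptgs2 and Il1rl2.

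Nos2 encodes the inducible nitric oxide synthase, which makes nitric oxide from arginine. Nos2 (Entrez 18126, chr11:78920787-78960226, GRCm38) had 17.8 and 25.5 normalized counts in the labelled Cry/Per/Nr1d_KO pair, 768 and 720 in the labelled Cry/Per_KO pair, and 2434 and 2317 in Per/Nr1d_KO cells. The line means were 21.7 ± 5.51, 744 ± 34.1 and 2375 ± 82.7 (SD, n = 2). The levels thus separated into 3 steps. On the log2 scale the labelled Cry/Per_KO pair was 5.12 ± 0.142 (SE) above the labelled Cry/Per/Nr1d_KO pair, a 34.4-fold difference, and Per/Nr1d_KO cells were 1.67 ± 0.0739 above the labelled Cry/Per_KO pair, a 3.19-fold difference. From the lowest line to the highest, the fold was 109.7. The neighbouring enzymes did not share this level, as Nos1 had at most 3 raw counts in any library and Nos3 at most 17.

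Steap4 encodes a metalloreductase of the plasma membrane and endosomes that reduces iron and copper and is induced by inflammatory cytokines. Steap4 (Entrez 117167, chr5:7960472-7982213) had 7.10 and 12.2 normalized counts in the labelled Cry/Per/Nr1d_KO pair, 909 and 853 in the labelled Cry/Per_KO pair, and 3023 and 2907 in Per/Nr1d_KO cells. It had the largest log2 difference of the members with counts in all libraries, at 6.53 ± 0.158 between the first pairs and 8.28 ± 0.137 between Per/Nr1d_KO and labelled Cry/Per/Nr1d_KO cells, a 307-fold difference. The step from labelled Cry/Per_KO to Per/Nr1d_KO cells was 1.75 ± 0.0698, against 1.67 for Nos2. Its relatives Steap1 and Steap2 behaved otherwise. Over these lines taken in that order, Steap1 averaged 3228, 2904 and 2589 normalized counts, and Steap2 had 12590, 20382 and 12163. Neither was called different in any comparison by the criteria given with the pathway lists.

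Lcn2 and Saa3 encode secreted acute-phase proteins, the siderophore-binding lipocalin 2 and serum amyloid A3. Lcn2 (Entrez 16819, chr2:32384637-32387739) had 41.7 and 24.4 normalized counts in the labelled Cry/Per/Nr1d_KO libraries, 595 and 574 in the labelled Cry/Per_KO libraries, and 3288 and 3057 in Per/Nr1d_KO libraries. Saa3 (Entrez 20210, chr7:46711998-46719615) had 13.3 and 18.9, then 394 and 408, then 1521 and 1596. Neither gene overlapped between lines. Between the first pairs the log2 difference was 4.10 ± 0.149 for Lcn2 and 4.66 ± 0.165 for Saa3. From labelled Cry/Per_KO to Per/Nr1d_KO cells, Lcn2 differed by 2.44 ± 0.0824 and Saa3 by 1.96 ± 0.0824. Lcn2 thus gained more in the second step than Nos2, Steap4 and Saa3, and less in the first. Of all 50-base stretches of the Saa3 transcript, 3.57% also occur in other genes, and no other member shares any.

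C3 is the central component of the complement cascade and is produced by many cell types under IL-1 and IL-6. C3 (Entrez 12266, chr17:57203967-57228136) had 1513 and 1490 normalized counts in the labelled Cry/Per/Nr1d_KO pair, 6148 and 6120 in the labelled Cry/Per_KO pair, and 48346 and 46995 in Per/Nr1d_KO cells. Its means were 1502 ± 15.9, 6134 ± 19.7 and 47671 ± 955 (SD, n = 2). For C3 the larger step lay between labelled Cry/Per_KO and Per/Nr1d_KO cells, at 2.96 ± 0.0437 on the log2 scale or 7.77-fold, against 2.03 ± 0.0465 or 4.08-fold between the other pairs. Per kilobase of exon, C3 had the highest level of the members in Per/Nr1d_KO cells, at 9269 normalized counts per kilobase.

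Il6, the cytokine that drives the acute-phase response through STAT3, followed a different split. Il6 (Entrez 16193, chr5:30013114-30019975) had 36.4 and 23.3 normalized counts in the labelled Cry/Per/Nr1d_KO libraries, 59.0 and 59.9 in the labelled Cry/Per_KO libraries, and 582 and 603 in Per/Nr1d_KO libraries. It was low in 4 libraries and high in 2. The first pairs differed by 0.96 ± 0.231 on the log2 scale, 1.99-fold, with an SD of 9.25 around a mean of 29.9 in the lower pair, whereas Per/Nr1d_KO cells were 3.32 ± 0.139 above the labelled Cry/Per_KO pair, 9.96-fold. Il6 therefore had the second smallest first step among the 9 members with counts in all lines, after Ptgs2 in signed order, while its second step was the largest of them.

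Nfkbia and Tnfaip3 encode inhibitors of the pathway that are also its targets, IkB-alpha and the ubiquitin-editing enzyme A20. Nfkbia (Entrez 18035, chr12:55489409-55492647) had 3820 and 3639 normalized counts in the labelled Cry/Per/Nr1d_KO pair, 8570 and 8837 in the labelled Cry/Per_KO pair, and 10973 and 10626 in Per/Nr1d_KO cells. Tnfaip3 (Entrez 21929, chr10:19000910-19015410) had 886 and 957, then 2789 and 2932, then 5642 and 5496. Both rank the lines as Nos2 does, over a much narrower range. Nfkbia differed by 1.22 ± 0.0467 on the log2 scale between the first pairs and by 0.31 ± 0.0450 between labelled Cry/Per_KO and Per/Nr1d_KO cells. Tnfaip3 differed by 1.64 ± 0.0596 and 0.96 ± 0.0534. Genes of chromosome 12 had a median log2 difference of 0.35 between the first pairs and -0.23 between Per/Nr1d_KO and labelled Cry/Per_KO cells. With the median of its chromosome subtracted, Nfkbia differed by 0.88 and 0.54, so that its first step stays the larger.

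Ptgs2 encodes the inducible cyclooxygenase COX-2, which makes the precursor of prostaglandins. Ptgs2 (Entrez 19225, chr1:150100031-150108234) had 12241 and 13087 normalized counts in the labelled Cry/Per/Nr1d_KO pair, 7584 and 7577 in the labelled Cry/Per_KO pair, and 16969 and 17127 in Per/Nr1d_KO cells. Among the members with counts in all libraries, it alone had the order of the first pairs reversed, being 1.67-fold higher in labelled Cry/Per/Nr1d_KO cells (log2 difference of labelled Cry/Per_KO from them -0.74 ± 0.0449). It was also abundant in every line, and its whole range was 2.25-fold. Genes of chromosome 1 had a median log2 difference of 0.28 between Per/Nr1d_KO and labelled Cry/Per/Nr1d_KO cells. With the median of its chromosome subtracted, Ptgs2 differed by 0.15 in place of 0.43 in that comparison. Between Per/Nr1d_KO and labelled Cry/Per_KO cells it differed by 0.91 in place of 1.17.

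Il1rl2 encodes the receptor subunit for the IL-36 cytokines. Il1rl2 (Entrez 107527, chr1:40324589-40367555) had 5.33 and 1.11 normalized counts in the labelled Cry/Per/Nr1d_KO libraries, 0 and 0 in the labelled Cry/Per_KO libraries, and 1331 and 1334 in Per/Nr1d_KO libraries. It was detected as an abundant transcript in Per/Nr1d_KO cells only, and its fold there over labelled Cry/Per_KO cells was at least 424, taking 3 counts per library as the limit that a count of 0 allows. The labelled Cry/Per/Nr1d_KO pair held 7 raw counts in all, which gives a pooled ratio of 386 (95% exact interval 187 to 960, counting error only). The fitted log2 difference of 8.54 ± 0.204 rests on those counts. It became 10.07 without labelled Cry/Per/Nr1d_KO replicate 1 and 7.93 without replicate 2. No fold is given between the low pairs. The IL-36 ligand genes Il36a, Il36b and Il36g and the antagonist gene Il36rn had 0 counts in all 6 libraries, so the ligands were not detectable at this depth.

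**Figure D3:**
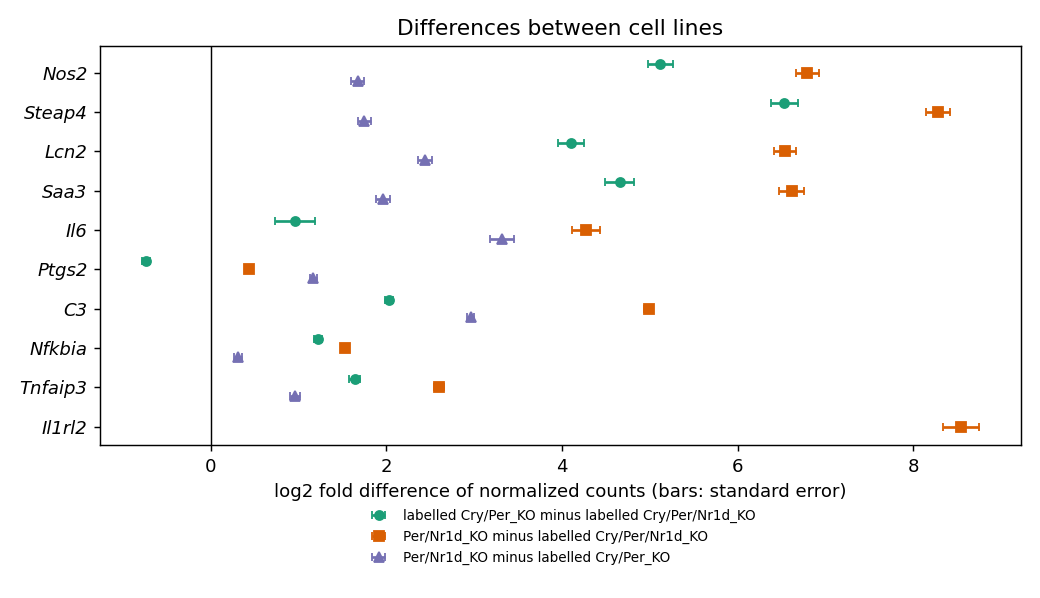
Log2 differences of the members with their standard errors for the 3 pairs of lines. For Nos2, Steap4, Lcn2, Saa3, Nfkbia and Tnfaip3 the difference between the labelled Cry/Per_KO and labelled Cry/Per/Nr1d_KO pairs exceeds that between Per/Nr1d_KO and labelled Cry/Per_KO cells, while for C3 and Il6 it is smaller and for Ptgs2 it is negative.

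The members thus differed in how the total range was divided. The first step exceeded the second for Nos2, Steap4, Lcn2, Saa3, Nfkbia and Tnfaip3, and the second exceeded the first for C3 and Il6. In Per/Nr1d_KO cells the order of levels per kilobase of exon was C3 (9269), Nfkbia (6708), Ptgs2 (3722), Lcn2 (1209), Steap4 (940), Tnfaip3 (771), Saa3 (598), Nos2 (538), Il6 (244) and Il1rl2 (196). In labelled Cry/Per/Nr1d_KO cells Ptgs2 (2765) and Nfkbia (2316) led on this scale, followed by C3 (292) and Tnfaip3 (128), and the other members lay between 0.473 and 12.6. Nfkbia and Ptgs2 thus had high levels in all lines, while Nos2, Steap4, Lcn2, Saa3 and Il6 were low in the line where the gradient starts.

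The genes with the profile most like that of Nos2 across the 6 libraries, by the Euclidean distance of centred log2(normalized count + 1) values, were Saa3 at 0.51, Lcn2 at 1.32 and Steap4 at 1.61. The nearest to Steap4 were Nos2 at 1.61, Ccl20 at 1.86 and Saa3 at 2.03. Lcn2 was not among the 3 nearest to Steap4. Ccl20, a chemokine gene outside the members, had 3.55 and 5.55 normalized counts in the labelled Cry/Per/Nr1d_KO pair, 156 and 145 in the labelled Cry/Per_KO pair, and 1517 and 1554 in Per/Nr1d_KO cells. Other close pairs of members were Lcn2 with Saa3 at 1.02, Nfkbia with Tnfaip3 at 1.08 and Il6 with C3 at 1.13. Il1rl2 stood farthest, at 7.16 or more from each other member.

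The remaining genes of the pathway were tested by edgeR's quasi-likelihood test over all genes, and calls needed both a change above 1.75-fold and an adjusted p (Benjamini-Hochberg) under 0.05. Of the 141 listed genes 105 reached the filter. Between the labelled Cry/Per_KO and labelled Cry/Per/Nr1d_KO pairs 28 were called (26.7%), 21 higher and 7 lower in labelled Cry/Per_KO cells, against 16.8% of all genes (7.86% higher, 8.95% lower). This split depended on the filter, with 25 higher and 14 lower at a mean of at least 10 and 25 higher and 15 lower without a filter. Between Per/Nr1d_KO and labelled Cry/Per/Nr1d_KO cells 44 were called (41.9%), 30 higher and 14 lower in Per/Nr1d_KO cells, against 20.7% (11.3% higher, 9.35% lower). Between Per/Nr1d_KO and labelled Cry/Per_KO cells 43 were called (41.0%), 27 higher and 16 lower, against 29.0% (15.2% higher, 13.8% lower). The median log2 difference over the listed genes was 0.09, 0.28 and 0.23 in these comparisons, and over all genes tested -0.0033, 0.011 and 0.035. The comparisons share libraries and are not independent. The shares of all genes given here are the background for the counts of each list below.

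**Figure D4:**
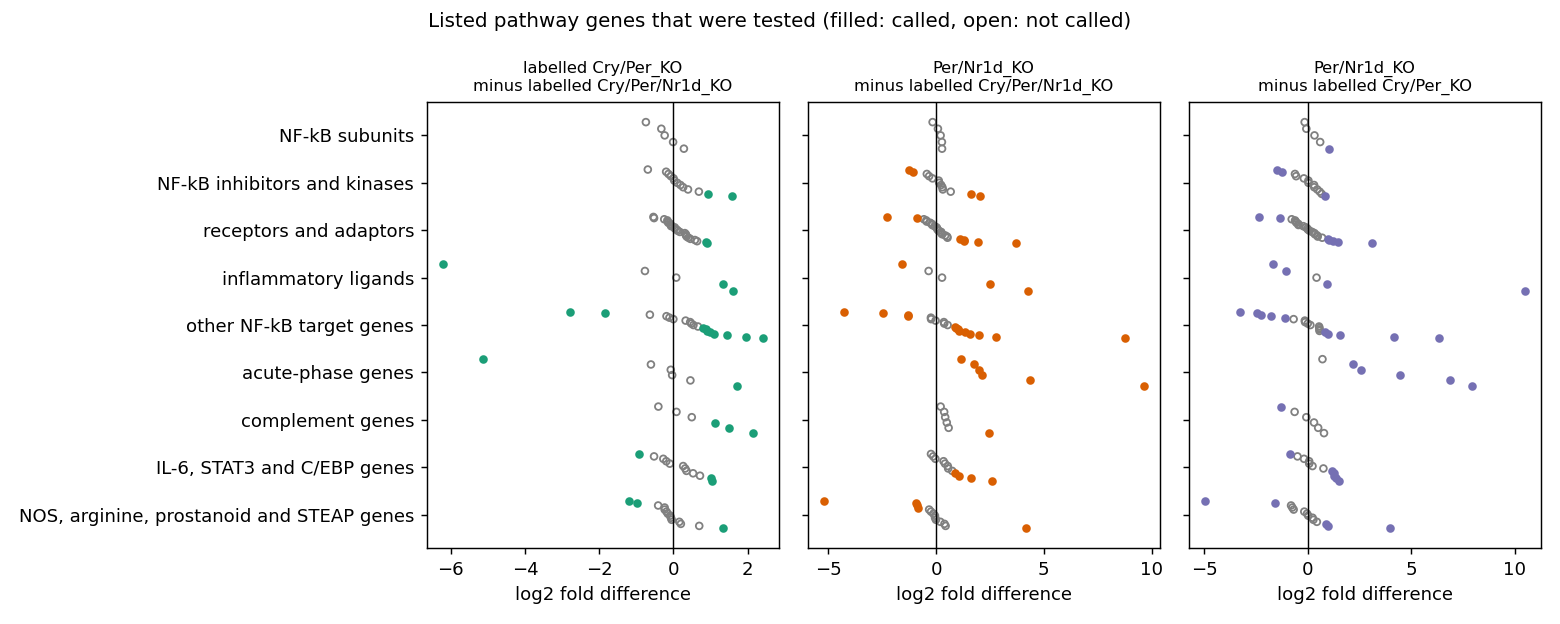
Log2 differences of tested genes of the 9 pathway lists in the 3 comparisons. Each point is a gene and is filled where called and open where not. Called genes lie on both sides of 0 in each comparison.

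The pathway's own machinery was examined first. Of the 5 NF-kB subunit genes, edgeR called 0 between the labelled Cry/Per_KO and labelled Cry/Per/Nr1d_KO pairs and 0 between Per/Nr1d_KO and labelled Cry/Per/Nr1d_KO cells. In each of these, 4 had an adjusted as well as an unadjusted p under 0.05 without reaching the fold limit, and DESeq2 also called 0. Nfkb1, which encodes p105 and p50, had the highest level of the 5. Its log2 difference was -0.74 ± 0.0416 between the first pairs (adjusted p = 4.48e-10). From labelled Cry/Per/Nr1d_KO to Per/Nr1d_KO cells it was 0.28 ± 0.0408 (adjusted p = 1.6e-05). It was called higher in Per/Nr1d_KO than in labelled Cry/Per_KO cells (log2 difference 1.02 ± 0.0416, adjusted p = 3.32e-12). These p-values are from the edgeR quasi-likelihood test with Benjamini-Hochberg adjustment. Among 13 tested inhibitors and kinases, 2 rose between the first pairs, 2 rose and 2 fell in Per/Nr1d_KO relative to labelled Cry/Per/Nr1d_KO cells, and 1 rose and 2 fell relative to labelled Cry/Per_KO cells. These calls were 15.4%, 30.8% and 23.1% of those tested, against 16.8%, 20.7% and 29.0% of all genes. The first and the last thus did not exceed the share of all genes. The nuclear IkB genes Nfkbiz and Bcl3 were called higher in both other lines than in labelled Cry/Per/Nr1d_KO cells. Nfkbiz had line means of 1673 ± 7.55, 4966 ± 176 and 6834 ± 427 normalized counts (SD, n = 2), in the order labelled Cry/Per/Nr1d_KO, labelled Cry/Per_KO and Per/Nr1d_KO. Map3k14, which encodes the kinase NIK of the alternative pathway, and Nfkbie, an inhibitor gene, fell in Per/Nr1d_KO cells relative to both other lines, by 1.24 and 1.09 on the log2 scale relative to labelled Cry/Per/Nr1d_KO cells.

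Among 24 receptor and adaptor genes, 2 were called between the first pairs (8.33%, against 16.8% of all genes), both higher in labelled Cry/Per_KO cells. In each comparison with Per/Nr1d_KO cells 7 were called (29.2%), 5 higher and 2 lower. The share of all genes was 20.7% against labelled Cry/Per/Nr1d_KO and 29.0% against labelled Cry/Per_KO cells, so the latter count lay at that share. Irak3, which encodes a brake on IL-1 and Toll-like receptor signalling, was 13.2-fold higher in Per/Nr1d_KO than in labelled Cry/Per/Nr1d_KO cells. Il1rl1, the IL-33 receptor gene and a relative of Il1rl2, went the opposite way to Il1rl2, with line means of 103612, 110355 and 21594 normalized counts and a fall of 2.26 on the log2 scale in Per/Nr1d_KO cells. Of 16 ligand genes only 5 were tested, because the others were scarce. Between the first pairs 2 rose and 1 fell, and in Per/Nr1d_KO cells 2 rose and 1 fell relative to labelled Cry/Per/Nr1d_KO cells and 2 rose and 2 fell relative to labelled Cry/Per_KO cells. Il1b had 0 counts in all libraries and Tnf had 1 count in all. Il1rn, which encodes the IL-1 receptor antagonist, had 396 ± 11.6, 5.17 ± 1.02 and 7540 ± 434 normalized counts (SD, n = 2) over the lines in that order, so that it was lowest where Nos2 was intermediate. Lif, a cytokine gene of the IL-6 family, was called in all 3 comparisons in the order of Nos2, with means of 525, 1596 and 3022.

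Of 19 other NF-kB targets tested, 8 rose and 2 fell in labelled Cry/Per_KO relative to labelled Cry/Per/Nr1d_KO cells, and 9 rose and 4 fell in Per/Nr1d_KO cells relative to the same pair. Relative to labelled Cry/Per_KO cells, 5 rose and 5 fell in Per/Nr1d_KO cells. Zc3h12a, which encodes the ribonuclease Regnase-1 that degrades Il6 mRNA, had means of 535, 2071 and 3658 normalized counts. Ch25h, the cholesterol 25-hydroxylase gene, had 6.99 ± 1.10, 37.0 ± 1.89 and 3051 ± 145. Targets also fell. Tnfaip2 was 5.50-fold lower in Per/Nr1d_KO than in labelled Cry/Per/Nr1d_KO cells, and Ptges, the prostaglandin E synthase gene that acts after Ptgs2, had means of 591, 163 and 31.9.

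Of 13 listed acute-phase genes beside Lcn2 and Saa3, only 6 reached the filter. All 6 rose in Per/Nr1d_KO relative to labelled Cry/Per/Nr1d_KO cells, against 11.3% of all genes called higher. Relative to labelled Cry/Per_KO cells 5 rose, against 15.2%. The filter takes the mean over all libraries, so a gene scarce in the other lines was tested only if high in Per/Nr1d_KO cells. Nothing is therefore read from these counts. Between the first pairs 1 was called higher and 1 lower in labelled Cry/Per_KO cells, with a median log2 difference of -0.05 over the 6. The lower one was Serpina3g, a serine protease inhibitor gene, which fell by 5.13 on the log2 scale and so went the opposite way to Lcn2 and Saa3. Hp, the haptoglobin gene, had 1 and 5 raw counts in the labelled Cry/Per/Nr1d_KO pair, 9 and 10 in the labelled Cry/Per_KO pair and 1934 and 3082 in Per/Nr1d_KO cells. Its call between the low pairs was lost without labelled Cry/Per/Nr1d_KO replicate 1, where the log2 difference was 0.82 in place of 1.70. Cp, the ceruloplasmin gene, had means of 440, 417 and 9038 normalized counts, a profile with the split of Il6 and not of Nos2. Among 7 tested complement genes beside C3, 3 rose between the first pairs, including C4b at 4.44-fold. In Per/Nr1d_KO cells 1 rose and 1 fell relative to labelled Cry/Per/Nr1d_KO cells, and 2 fell relative to labelled Cry/Per_KO cells. These complement calls were 42.9%, 28.6% and 28.6% of those tested, against 16.8%, 20.7% and 29.0% of all genes, so the last lay at that share.

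Of 12 tested genes of IL-6, STAT3 and C/EBP signalling, 2 rose and 1 fell between the first pairs, and 4 rose in Per/Nr1d_KO relative to labelled Cry/Per/Nr1d_KO cells. Relative to labelled Cry/Per_KO cells 5 rose and 1 fell. Cebpd, the C/EBP-delta gene, rose in all 3 comparisons, with means of 953 ± 78.3, 1956 ± 223 and 5675 ± 607 normalized counts (SD, n = 2). Il6st, which encodes the shared receptor gp130, had 35034, 70248 and 73786. Stat3 had 8845, 11022 and 12923, and was not called in any comparison. Among 14 tested genes of nitric oxide, arginine, prostanoid and STEAP biology, 1 rose and 2 fell between the first pairs, 1 rose and 4 fell in Per/Nr1d_KO relative to labelled Cry/Per/Nr1d_KO cells, and 3 rose and 2 fell relative to labelled Cry/Per_KO cells. Slc7a2, which encodes an arginine transporter, was 18.1-fold higher in Per/Nr1d_KO than in labelled Cry/Per/Nr1d_KO cells. Ptgs1, the constitutive cyclooxygenase gene, fell by 5.20 on the log2 scale in the same comparison, to 124 ± 0.237 normalized counts, while Ptgs2 was at its highest there.

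In all, 13 listed genes were called higher than in labelled Cry/Per/Nr1d_KO cells in both other lines, 12.4% of the 105 tested against 2.35% of all genes. They were Nfkbiz, Bcl3, Tlr3, Lif, Zc3h12a, Gadd45b, Ier3, Mmp13, Ch25h, Hp, C4b, Il6st and Cebpd. Of these, 6 were also called higher in Per/Nr1d_KO than in labelled Cry/Per_KO cells and so had the stepwise order of Nos2 with a call at each step (5.71% of those tested, against 0.804% of all genes). These were Tlr3, Lif, Zc3h12a, Ch25h, Hp and Cebpd. Ch25h and Hp are counted in both shares but reached the filter only through their high level in Per/Nr1d_KO cells. Neither could be tested between the low pairs with the compared groups alone. The call of Hp between these pairs was also lost without labelled Cry/Per/Nr1d_KO replicate 1. Because of this, and because the lists were chosen with earlier results of these data known, nothing is read from these shares.

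Markers of macrophages and other leukocytes, cells that also express many of these genes, were read in the same libraries. The summed level of the 10 markers was 888 to 900 normalized counts in the labelled Cry/Per/Nr1d_KO libraries, 1381 to 1485 in the labelled Cry/Per_KO libraries and 1819 to 1861 in Per/Nr1d_KO libraries, and thus moved in the order of Nos2. Cd14 and Cd68 carried this sum and were the 2 markers that reached the filter. Of the 10 markers, 7 exceeded the level of 3 counts in some library. Among the low ones, Ptprc had at most 3.95 normalized counts and Adgre1 at most 1.27, and only Tyrobp had 0 counts in all libraries. The part of leukocytes in the levels of the members was not tested.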

How the data were processed

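Poly-A RNA of 3 MEF lines was sequenced (stranded, single-end, 50 bases) in 2 libraries per line. Per the labels and the methods of the study, STAR alignment to mm10 was followed by featureCounts, and the counts that the authors deposited are raw whole numbers per Entrez Gene ID. The strand setting of the counting is not given in the sources used here. The authors' DESeq2 tables (1.22.2 in the submitters' processing notes), which hold fold changes and p-values, were not used.

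Libraries were grouped by genotype label. The members and lists were chosen with earlier results of these data known. Symbols, positions and promoters came from RefSeq (GRCm38.p6, 25275 of 27179 IDs matched) and exon lengths from GENCODE vM21. Counts were fitted in R 4.3.3 with edgeR 4.0.16 (quasi-likelihood, TMM, all 6 libraries, 3 groups, no block), keeping genes whose mean reached 100 normalized counts. Called genes had a Benjamini-Hochberg adjusted p under 0.05 and a change over 1.75-fold. The standard error is the log2 difference divided by the square root of F. A rule set which genes could be named. It took all members and the 3 profiles nearest Nos2 and Steap4. Per list and comparison it took up to 2 called genes with the largest rise and 2 with the largest fall (with no call, the highest gene). Not every listed gene so selected is named, and those left out include rises, such as Il18, and falls, such as Tslp. Genes outside this rule, such as the Steap and Nos genes, Stat3, Il1b, Tnf, Ier3 and others called in both comparisons, were named after their values were seen. At totals of 53764390 to 85927236 counts, abundant genes varied mainly by the common biological coefficient of variation (0.0393), and genes near 0 counts are limited by counting. In a test on simulated data 48, 50, 50 and 50 of 50 genes changed by log2 -2, -1, 1 and 2 were recovered among 11737 genes. The changed genes all had a mean of at least 100 normalized counts in labelled Cry/Per/Nr1d_KO cells, and every gene had the common variation. The test therefore does not cover genes scarce in that line, such as Nos2 and Steap4. A listed gene that the rule names is not reported here or drawn. Alternatives were DESeq2 1.42.0, median-of-ratios size factors, other filters, no fold limit, the compared groups alone, a replicate block, leaving out each library, exchanged labels and, chosen after seeing the data, chromosome medians subtracted and a block with crossed numbers.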

Additional observations from a re-analysis of the deposited data

How the results depend on the processing

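The log2 differences of the members were recomputed under each alternative. Apart from the exchange of labels, none of 363 values reversed, and 17 moved by more than 1 SD. With the genotype labels exchanged, the difference of labelled Cry/Per_KO from labelled Cry/Per/Nr1d_KO cells became -5.12 for Nos2, -6.53 for Steap4, -4.10 for Lcn2, -4.66 for Saa3, -0.96 for Il6, 0.74 for Ptgs2, -2.03 for C3, -1.22 for Nfkbia and -1.64 for Tnfaip3. The comparisons with Per/Nr1d_KO cells exchanged their values. Against Cry/Per/Nr1d_KO cells the difference became 1.67 for Nos2 (from 6.80), 1.75 for Steap4 (from 8.28), 2.96 for C3 (from 4.99) and 0.31 for Nfkbia (from 1.53), with 3457 genes called (from 2468), and against Cry/Per_KO cells the reverse held. Il6 between the labelled Cry/Per_KO and Cry/Per/Nr1d_KO pairs could not be fitted with the compared groups alone, where it fell under the filter.

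Counts of called genes depended on the filter and the fold limit. In the order labelled Cry/Per_KO against labelled Cry/Per/Nr1d_KO, Per/Nr1d_KO against labelled Cry/Per/Nr1d_KO, and Per/Nr1d_KO against labelled Cry/Per_KO, they were 2006, 2468 and 3457. Without an expression filter they were 3808, 4576 and 5590, and with a mean of at least 10 the first and second were 3311 and 3912. The listed genes called were 39, 56 and 54 with a mean of at least 10 and 40, 61 and 59 without a filter. Without a fold limit the genes called were 9118, 9042 and 9793, and the listed genes called were 81, 91 and 90. DESeq2 gave 2004, 2463 and 3462, with 28, 44 and 43 listed genes. Leaving out each library in turn gave 1962 to 2025, 2414 to 2487 and 3377 to 3476 genes, and 26 to 28, 42 to 43 and 41 to 44 listed genes.

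Same-numbered libraries did not deviate together (r = -0.211, -0.102 and -0.024 across genes for the 3 pairs of lines), and nothing says that a number marks a shared day. With the replicate block 2002, 2468 and 3457 genes and 28, 44 and 43 listed genes were called. With the numbers of the labelled Cry/Per/Nr1d_KO libraries crossed, they were 2003, 2469 and 3460.

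Each line rests on 2 libraries, and Nos2, Steap4, Lcn2, Saa3 and Il6 on fewer than 50 normalized counts per library in labelled Cry/Per/Nr1d_KO cells.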

Other observations

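Fibroblast and epithelial markers also separated the lines. Of 8 tested fibroblast markers, 4 were called higher and 4 lower in Per/Nr1d_KO than in labelled Cry/Per/Nr1d_KO cells by edgeR's quasi-likelihood test. Col3a1, a fibrillar collagen gene, had line means of 819 ± 25.2 in labelled Cry/Per/Nr1d_KO, 292 ± 4.37 in labelled Cry/Per_KO and 43303 ± 698 normalized counts in Per/Nr1d_KO cells (SD, n = 2). S100a4, a calcium-binding protein gene, fell by 2.83 on the log2 scale in Per/Nr1d_KO relative to labelled Cry/Per/Nr1d_KO cells. The summed level of 6 epithelial markers was 799 to 808 normalized counts in Per/Nr1d_KO libraries, against 19.6 to 111 in the other 4. Krt19, a keratin gene, was the only epithelial marker tested and carried most of the sum in Per/Nr1d_KO cells, at 671 ± 4.71. The 5 endothelial markers summed to 49.0 to 138 over all 6 libraries and none reached the filter. The part of these differences in the levels of Nos2, Steap4 and the other inflammatory genes was not tested.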
